A study of Mus musculus with 32 samples.

Results

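Expression of 7 genes was followed in bone marrow-derived macrophages (BMDMs): the EGF receptor ligands Hbegf, Areg and Ereg, the plasminogen activators Plau (urokinase) and Plat (tissue-type activator), the urokinase receptor Plaur, and Serpinb2, an inhibitor of plasminogen activators. The members were found by the gene name that the array's scanner files give, which matched 1 probe for each of the 7 genes among 55681 probes, of which 33140 carry a gene symbol. The set was chosen by a measured response: Hbegf, Plau and Plaur were picked for their rise when zVAD is added, with no genotype named and WT taken here, and the other 4 were added as their relatives by function. The WT changes upon zVAD are therefore given as a description with no test, and for the 3 picked genes all other WT changes, and the Ifnar1-/- changes upon zVAD, are also given without one. The p-values of these 3 genes in the other Ifnar1-/- comparisons are tests only if the choice rested on WT arrays.

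BMDMs of WT (C57BL/6) mice and of mice with the type I interferon receptor gene knocked out (Ifnar1-/-) were grown from bone marrow with macrophage colony-stimulating factor. Besides untreated cells, each genotype had a 6 h treatment with zVAD alone, with LPS alone or joined by zVAD or by both zVAD and Nec-1, and with IFNβ in the same 3 forms, with 2 arrays in each of the 16 groups and 32 arrays in all. LPS is a bacterial product that engages the receptor TLR4, IFNβ signals through the receptor that the Ifnar1-/- cells lack, zVAD blocks caspases, and Nec-1 blocks the kinase RIPK1, so that LPS or IFNβ with zVAD is a stimulus for necroptosis, a lytic form of cell death. The sample labels give 100 ng/mL LPS and 1000 U/mL IFNβ, and the study's text gives other doses, so the doses are not settled. The age and sex of the mice are not given in the sources used here. Nor is it said whether the 2 replicates of a group came from separate mice or cultures. The p-values below therefore measure a spread between replicate arrays that may be technical. For each gene this spread is pooled over the 16 groups, so it is not that of the compared groups alone. The treatments were meant to show how necroptosis signaling and type I interferon signaling shape the inflammatory output of macrophages.

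EGF receptor ligands are made as membrane-bound precursors that the protease ADAM17 cuts from the cell surface, with iRhom proteins (Rhbdf1 and Rhbdf2) escorting the protease. Macrophages release Hbegf, Areg and Ereg during inflammation and wound repair, where these ligands act on epithelial cells and fibroblasts. Urokinase bound to its receptor on the cell surface turns plasminogen into plasmin, which degrades fibrin and activates metalloproteinases, and macrophages use this system to move through tissue. Serpinb2 inhibits the activators and is known as one of the most strongly induced genes of LPS-treated macrophages.

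Levels are log2 normalized intensities, in which a difference of 1 is a doubling, and levels of different probes cannot be set against each other. Between 44.5% and 78.0% of probes stood well above background on an array. Replicates correlated across genes at r = 0.947 to 0.991, and the lowest value belonged to Ifnar1-/- LPS+zVAD+Nec-1, where the 2 arrays differed by a median of 0.51 log2 units, against 0.20 to 0.38 in the other groups. The 100 genes that LPS raised most in Ifnar1-/- cells had a median of 5.10 above the Ifnar1-/- untreated level on replicate 1 of that group but 0.29 above it on replicate 2, compared with 6.36 and 6.41 on the 2 Ifnar1-/- LPS arrays. The array labelled Ifnar1-/- LPS+zVAD+Nec-1 replicate 2 therefore lacks most of the LPS response that its label implies, and member results that rest on this pair are given for each array or with either array left out, as are the list counts and medians. The Ifnar1 probe read 11.13 to 12.44 in Ifnar1-/- cells and 9.04 to 14.77 in WT cells, and whether it lies in the deleted part is not given in the sources used here, so it checks nothing. IFNβ changed 5783 genes in WT cells and 0 in Ifnar1-/- cells at an adjusted p under 0.05 in limma (7033 and 255 at an unadjusted p under 0.05), as the genotype labels imply.

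**Figure D1:**
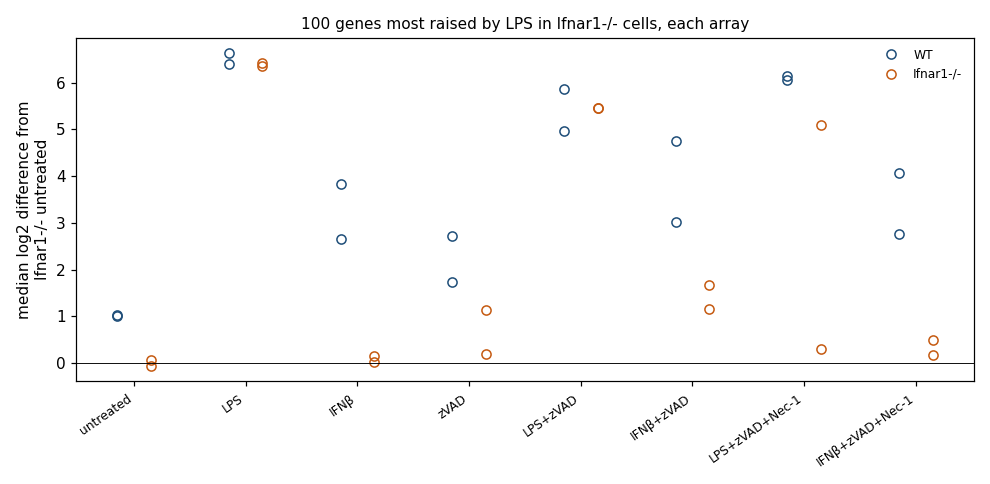
Median log2 difference (y axis) of the 100 genes most raised by LPS in Ifnar1-/- BMDMs from their Ifnar1-/- untreated mean, for each array by treatment (x axis), with 1 circle per array and n = 2 per group. The 2 arrays of Ifnar1-/- LPS+zVAD+Nec-1 stand at 5.10 and 0.29.

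The cells carried macrophage markers: all 8 on the array, Csf1r, Cd68 and Lyz2 among them, were above background on every array. Among them Fcgr1, an antibody receptor that interferon induces, did not overlap between genotypes, at 12.28 to 16.69 in WT and 6.81 to 11.83 in Ifnar1-/- cells. The summed log2 level of the macrophage list was 19.60 to 20.10 in WT and 19.66 to 20.10 in Ifnar1-/- cells. The fibroblast list of 5 genes differed, with summed levels of 8.78 to 10.39 in WT and 10.86 to 12.63 in Ifnar1-/- cells. Of these genes 4 were above background on at least 50% of arrays, and Pdgfra was above it on 0 arrays. The fibroblast genes Col1a1 and Col1a2 did not overlap between genotypes, as 3.67% of the 16035 genes tested did not. Of the 6 neutrophil genes, 5 were above background on at least 50% of arrays. Ly6g and Ltf did not overlap between genotypes, in opposite directions, and the summed levels of the list were 12.88 to 14.24 in WT and 12.91 to 14.14 in Ifnar1-/- cells. The 4 slides each held 1 genotype, so a difference in level between genotypes cannot be told apart from the slide, and in bulk RNA fewer cells of a type and less RNA per cell cannot be told apart. Of 4 epithelial and 4 mast cell and basophil markers, 0 were above background on at least 50% of arrays. The same count was 3 of 3 for B cell, 2 of 3 for endothelial, 2 of 3 for dendritic cell and 1 of 3 for T cell markers, whose summed levels overlapped between genotypes. The part of these marker differences in the results below was not tested.

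RefSeq promoter sequences (GRCm38.p6) were at hand for 3 of the 7 members, Areg, Plaur and Serpinb2, and they are shown because AP-1 and CREB family factors, which bind the motifs below, act downstream of LPS and of stress kinases. The 250 bases before each start were searched on both strands for the AP-1 motif TGANTCA, the CRE TGACGTCA, the ISRE GAAANNGAAA, the TATA box TATAAA and the NF-κB consensus motif. The last 120 bases before the start are printed, with the AP-1 motif or the CRE in capitals.
Areg, chr5:91139479-91139598, plus strand: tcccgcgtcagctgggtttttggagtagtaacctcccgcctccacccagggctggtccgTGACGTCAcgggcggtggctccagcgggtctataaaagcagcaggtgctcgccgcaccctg
Plaur, chr7:24462363-24462482, plus strand: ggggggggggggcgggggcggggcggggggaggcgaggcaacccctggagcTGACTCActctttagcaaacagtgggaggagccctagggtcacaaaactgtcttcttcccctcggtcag
Serpinb2, chr1:107511303-107511422, plus strand: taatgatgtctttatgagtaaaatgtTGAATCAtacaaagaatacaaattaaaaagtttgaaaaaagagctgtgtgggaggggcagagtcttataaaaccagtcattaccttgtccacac

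The AP-1 motif began 69 bases before the start of Plaur and 94 bases before the first of the 2 annotated starts of Serpinb2, and 6.75% of the 32851 promoters in the table hold it. The CRE began 61 bases before the start of Areg, and 1.55% of promoters hold one. A TATA box began 31 bases before the start of Areg and 29 bases before that of Serpinb2, against 12.4% of promoters. The ISRE (2.98% of promoters) and the NF-κB motif (3.90%) were found in none of the 3 windows, and these motifs do not overlap each other in them.

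Hbegf, a membrane-anchored growth factor that binds EGFR and ERBB4, was above background on all 32 arrays and reached its highest levels with LPS+zVAD in both genotypes. In WT cells its log2 level was 5.55 and 6.91 untreated, 8.07 and 6.45 with LPS, and 14.10 and 14.79 with LPS+zVAD. With LPS+zVAD+Nec-1 it was 11.15 ± 0.50 (mean ± SD, n = 2), and both arrays lay below the LPS+zVAD arrays and above the LPS arrays. IFNβ gave 9.78 and 9.10, zVAD alone 7.37 and 8.95, IFNβ+zVAD 10.83 and 11.75, and IFNβ+zVAD+Nec-1 10.19 and 9.37. In Ifnar1-/- cells Hbegf kept to a narrow range in 5 groups: it lay between 8.59 and 9.18 when untreated, with LPS, IFNβ or zVAD, and with IFNβ+zVAD. It rose out of that range with LPS+zVAD, to 13.33 and 13.12, and was below it with LPS+zVAD+Nec-1 (7.75 and 8.06) and with IFNβ+zVAD+Nec-1 (7.74 and 7.87). Over the 16 groups the order was led by WT LPS+zVAD and then Ifnar1-/- LPS+zVAD, which stood apart from each other and from the next group. WT IFNβ+zVAD and WT LPS+zVAD+Nec-1 came next and overlapped, and from the fifth place downward each group overlapped its neighbour.

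Plau, the secreted protease urokinase (its probe lies at chr14:21662242-21662301, mm9), was also above background on all 32 arrays. Its level fell with LPS and was highest with LPS+zVAD. In WT cells it was 8.88 and 9.25 untreated, 6.66 and 6.16 with LPS, and 13.72 ± 0.40 (mean ± SD, n = 2) with LPS+zVAD, where both arrays were above all other WT arrays. LPS+zVAD+Nec-1 gave 8.88 and 10.77, so the 2 arrays lay between the LPS and the LPS+zVAD levels but far from each other. With IFNβ it was 10.70 and 10.59, with zVAD 9.90 and 11.31, with IFNβ+zVAD 11.66 and 12.68, and with IFNβ+zVAD+Nec-1 10.30 and 10.35. Ifnar1-/- cells started higher, at 12.64 and 12.59 untreated, and stayed at 12.49 to 12.79 with IFNβ, zVAD and IFNβ+zVAD. LPS took Plau down to 8.10 and 8.58 there, and LPS+zVAD brought it to 13.21 and 13.18, above every other Ifnar1-/- group. With LPS+zVAD+Nec-1 it was 8.26 and 10.48, and with IFNβ+zVAD+Nec-1 10.32 and 10.06. By group mean, WT LPS was the lowest of the 16 groups and Ifnar1-/- LPS the next lowest. They did not overlap each other, nor did Ifnar1-/- LPS overlap the group next above, WT untreated. The Ifnar1-/- LPS+zVAD+Nec-1 array at 8.26, replicate 1, did lie within the Ifnar1-/- LPS range.

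Plaur, the glycolipid-anchored receptor that holds urokinase at the cell surface (chr7:25260569-25260628, mm9), was above background on all 32 arrays and moved over a narrower range, 12.04 to 16.54. In WT cells it was 12.04 and 12.27 untreated, 14.91 and 14.13 with LPS, and 16.23 and 16.54 with LPS+zVAD. WT LPS+zVAD+Nec-1 gave 15.11 and 15.10, above the LPS arrays and below the LPS+zVAD arrays. The WT IFNβ, zVAD, IFNβ+zVAD and IFNβ+zVAD+Nec-1 arrays lay between 13.16 and 14.61. In Ifnar1-/- cells it was 14.43 and 14.24 untreated, 15.67 and 15.70 with LPS, and 16.09 and 16.18 with LPS+zVAD, and 13.41 to 14.72 in the 5 other groups. Every treated WT array was above both WT untreated arrays. In contrast, both Ifnar1-/- IFNβ+zVAD+Nec-1 arrays, 13.85 and 13.41, were below both Ifnar1-/- untreated arrays.

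Serpinb2 (chr1:109422046-109422105, mm9) was above background on 28 of 32 arrays and spanned the widest range of the 7 genes. It was highest with LPS alone, at 14.51 and 14.86 in WT and 13.74 and 13.92 in Ifnar1-/- cells. Untreated WT cells gave 3.07 and 4.08, with 1 of the 2 arrays above background, and untreated Ifnar1-/- cells 6.07 and 5.70. With LPS+zVAD it was 12.05 and 11.99 in WT and 13.24 and 13.50 in Ifnar1-/- cells, in both below the LPS arrays. After LPS+zVAD+Nec-1 the WT arrays stayed at 11.67 and 12.55, while the Ifnar1-/- arrays read 7.55 and 5.15, with 1 of 2 above background. IFNβ raised it in WT cells, to 8.63 and 12.01, and the Ifnar1-/- arrays with IFNβ, 6.09 and 5.47, overlapped the untreated ones. The WT arrays with IFNβ+zVAD (9.43 and 13.96) and IFNβ+zVAD+Nec-1 (7.41 and 12.45) showed the same wide split, replicate 2 being the higher in each. Ifnar1-/- cells gave 8.10 and 7.26 with IFNβ+zVAD and 5.21 and 5.05 with IFNβ+zVAD+Nec-1, the latter with 0 of 2 above background. zVAD alone gave 5.60 and 7.47 in WT and 7.47 and 5.74 in Ifnar1-/- cells.

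**Figure D2:**
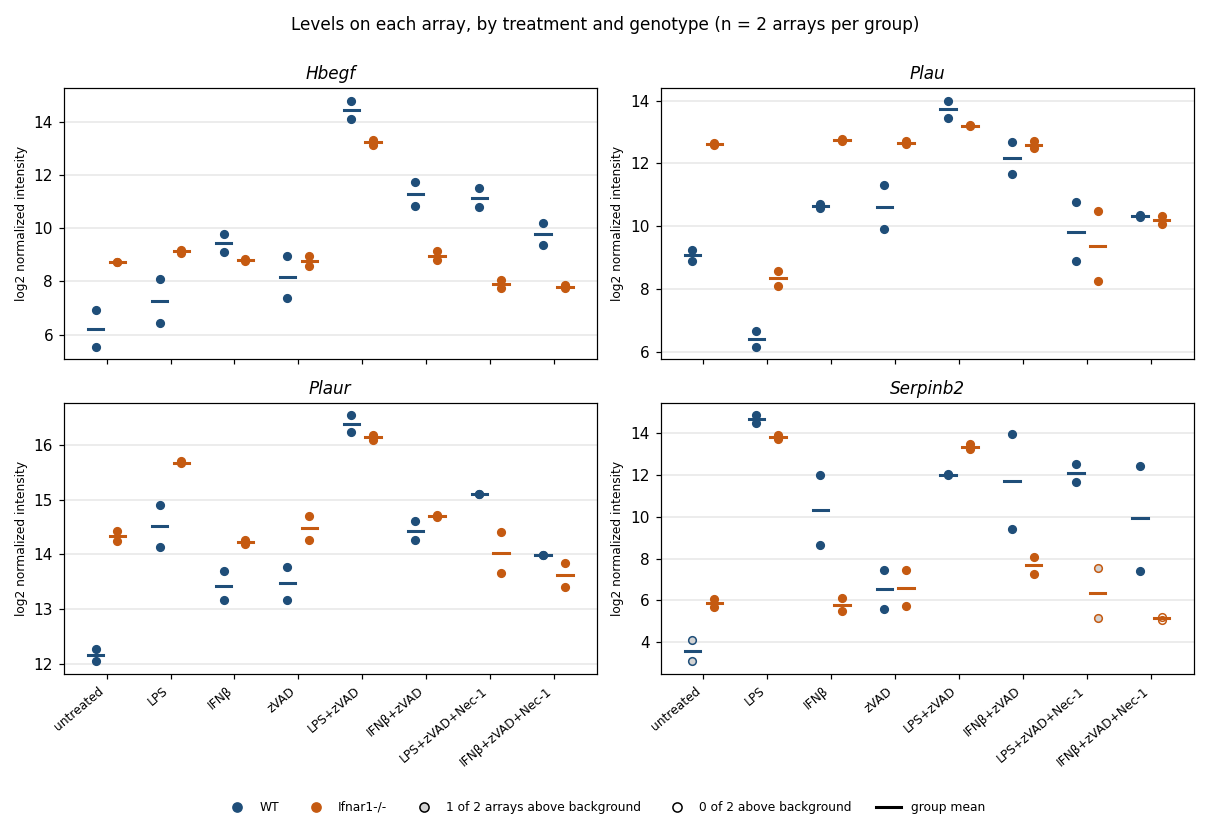
Log2 normalized intensity (y axis, separate scale per gene) of Hbegf, Plau, Plaur and Serpinb2 on each array, by treatment (x axis) and genotype, with bars at the mean of n = 2 arrays. Hbegf, Plau and Plaur are highest with LPS+zVAD in both genotypes, and Serpinb2 is highest with LPS.

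The 3 other members were dim. Areg (chr5:91570090-91570149, mm9) and Ereg (chr5:91522553-91522612, mm9), ligands whose probes lie 47537 bases apart, were each above background on 7 arrays. Plat (chr8:23892531-23892590, mm9) was above background on 11. None of the 3 was above background on at least 50% of arrays, so they did not enter the main test.

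Ereg was above background in LPS-containing groups only. Both Ifnar1-/- LPS arrays (8.30 and 8.94), both Ifnar1-/- LPS+zVAD arrays (6.53 and 7.11) and both WT LPS arrays (4.67 and 5.76) had signal, as did 1 of 2 WT LPS+zVAD arrays. Ifnar1-/- LPS stood above the other groups with no overlap, and untreated cells read 2.49 and 2.31 in WT and 2.58 on both arrays in Ifnar1-/- cells, not well above background. A dim probe gives only a bound on the difference between group means. For each dim array it takes the higher of the probe's own signal and the lowest signal that passed as above background there. By this bound LPS raised Ereg at least 19.3-fold in Ifnar1-/- and at least 4.01-fold in WT cells. Such bounds, here and below, leave out the spread between replicates. They also rest on that lowest passing signal, and a higher signal can fail to pass, so they are not strict minima. Plat at 4.64 on a WT IFNβ+zVAD array did not pass, while 1 WT zVAD array passed at 3.54 or lower.

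Plat followed LPS as well. It was above background on both arrays of WT LPS (6.55 and 8.92), WT LPS+zVAD (6.77 and 8.72), WT LPS+zVAD+Nec-1 (5.14 and 7.31), Ifnar1-/- LPS (8.34 and 8.84) and Ifnar1-/- LPS+zVAD (8.02 and 8.46), and on 1 WT zVAD array. In untreated cells it was not well above background, and LPS raised it at least 22.9-fold in WT and at least 18.9-fold in Ifnar1-/- cells. Each of these 5 groups overlapped the next in the order of levels, and the Ifnar1-/- LPS+zVAD+Nec-1 arrays (4.88 and 4.65), not above background, lay below all of them.

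Areg had signal on both arrays in WT LPS+zVAD alone (5.93 and 6.15). It was above background on 1 of 2 arrays in 5 other groups: WT LPS, WT zVAD, WT IFNβ+zVAD+Nec-1, Ifnar1-/- LPS and Ifnar1-/- LPS+zVAD. The WT IFNβ+zVAD+Nec-1 arrays, 2.81 and 6.31, lay farther apart than any other pair.

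**Figure D3:**
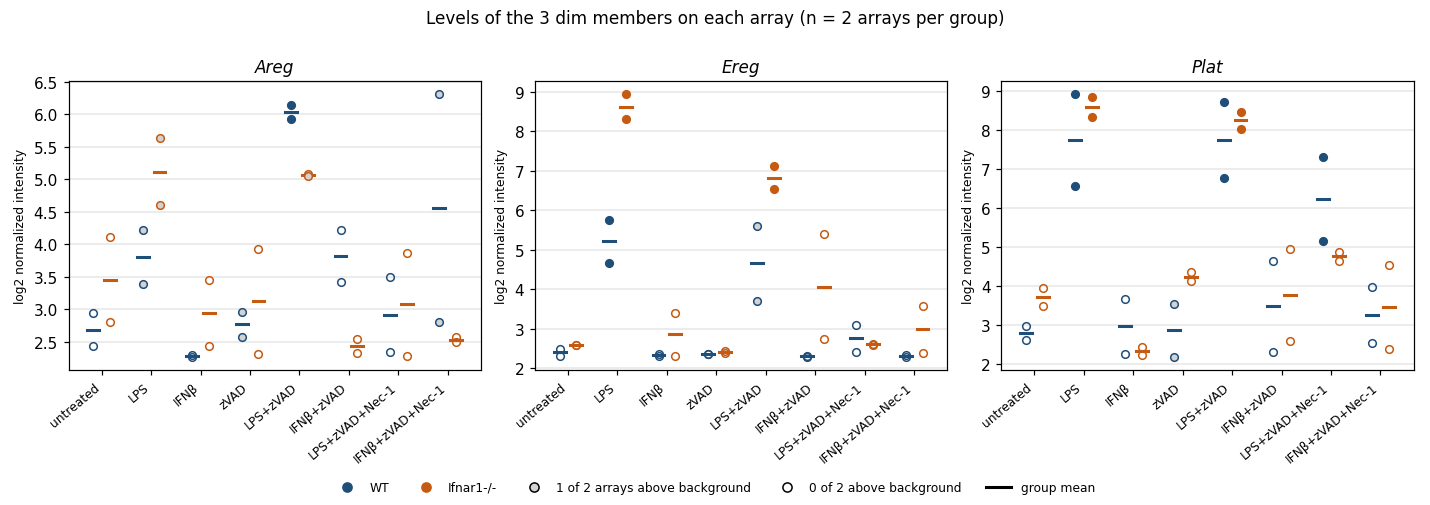
Log2 normalized intensity (y axis, separate scale per gene) of Areg, Ereg and Plat on each array, by treatment (x axis) and genotype, with bars at the mean of n = 2 arrays. Filled points mark groups with both arrays above background, grey points 1 of 2 and open points 0 of 2, and Ereg is highest in Ifnar1-/- LPS.

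Differences between treatments within a genotype were tested with limma over 16035 genes, with p-values adjusted by the Benjamini-Hochberg method, and 4 of the 7 members (Hbegf, Plau, Plaur and Serpinb2) were in the fit. LPS moved Plau down and Plaur and Serpinb2 up in Ifnar1-/- cells, 3 of the 4 members tested, where 10.6% of all genes were called higher and 14.6% lower. Plau fell by 4.28 on the log2 scale (SE 0.59, adjusted p = 8.75e-05), which is 19.4-fold lower. Plaur rose by 1.35 (SE 0.28, adjusted p = 0.00168) and Serpinb2 by 7.94 (SE 1.41, adjusted p = 5.04e-04). Hbegf had a log2 difference of 0.40, with a 95% interval of -0.73 to 1.53 (adjusted p = 0.685). As the choice named no genotype, these p-values of the picked genes are tests only if it rested on WT arrays. The Ifnar1-/- LPS arrays also enter their change upon zVAD. In WT cells Serpinb2 rose by 11.12 (SE 1.41, adjusted p = 6.50e-06) against an untreated group with 1 of 2 arrays above background, where 16.1% of genes were called higher and 25.6% lower, and the value ran from 8.40 to 11.62 over the settings tried. The WT differences of the picked genes were -2.66 for Plau, 2.37 for Plaur and 1.04 for Hbegf, whose 2 replicates went in opposite directions (2.53 and -0.46).

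With no filter on dim probes, which brings the genes tested to 24082, Ereg and Plat were called higher upon LPS in both genotypes, where 6.85% of genes in Ifnar1-/- and 10.3% in WT cells were. Beside the bounds given above, the adjusted p in limma was 2.54e-05 in Ifnar1-/- and 0.00341 in WT cells for Ereg, and 0.00254 and 0.00104 for Plat. Both were not well above background on all untreated arrays, so the sizes of the rises are only bounded. The filter sets whether these calls exist, since a gene silent in most groups cannot pass it.

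IFNβ moved Serpinb2 in WT cells and no member in Ifnar1-/- cells. Serpinb2 rose by 6.75 in WT cells (SE 1.41, adjusted p = 9.71e-04), in both replicates (5.57 and 7.94), where 13.5% of genes were called higher and 22.6% lower. The untreated WT level it rests on was above background on 1 of 2 arrays, and the value ran from 4.19 to 8.44 over the settings tried. In Ifnar1-/- cells its difference was -0.10, with a 95% interval of -3.05 to 2.84, and 0% of genes were called in either direction. The interval uses the spread pooled over all groups, and the SD of Serpinb2 was 2.39 in WT IFNβ and 0.44 in Ifnar1-/- IFNβ. The response to IFNβ in Ifnar1-/- minus that in WT cells was -6.86 (SE 1.99, adjusted p = 0.0207), in a comparison that called 10.8% of genes higher and 8.47% lower. This call was lost with another background correction, with the authors' table and when 1 of 4 single arrays was left out, with adjusted p-values up to 0.106. For the response to LPS, the same difference was -3.17 (SE 1.99, adjusted p = 0.436), where 3.01% of genes were called higher and 3.62% lower. The picked genes rose in WT cells upon IFNβ by 3.21 for Hbegf, 1.58 for Plau and 1.27 for Plaur, in both replicates of each, and in Ifnar1-/- cells the differences were 0.07, 0.13 and -0.11.

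With zVAD on its own, 0% of genes were called higher or lower in Ifnar1-/- cells (60 genes at an unadjusted p under 0.05). The differences of the 4 members ran from 0.05 for Plau and Hbegf to 0.72 for Serpinb2. For Serpinb2 the replicates gave 1.40 and 0.04. Its interval of -2.23 to 3.67 is too wide to show that the change was small. The WT values, given with no test, were 1.93 for Hbegf, 1.54 for Plau, 1.31 for Plaur and 2.96 for Serpinb2, each higher in both replicates.

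With zVAD added to LPS, Hbegf and Plau were higher on both arrays in Ifnar1-/- cells, where 4.75% of genes were called higher and 3.77% lower. Since the choice of the picked genes names no genotype, their values here are given with no test. Hbegf had a difference of 4.10 (SE 0.54), which is 17.2-fold, with 4.26 and 3.94 in the 2 replicates. Plau had one of 4.86 (SE 0.59), which is 29.0-fold, with 5.11 and 4.61. For Plaur it was 0.45 (SE 0.28), and Serpinb2 differed by -0.46, with an interval of -3.41 to 2.49 (adjusted p = 0.925). In WT cells Plau and Hbegf ranked 3 and 4 of 16035 genes by rise, at 7.31 and 7.18, and Plaur ranked 682 at 1.87. Serpinb2 had a WT value of -2.67, Areg 2.23, Ereg -0.56 and Plat 0.01.

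Adding zVAD to IFNβ did not change Serpinb2 past the test in Ifnar1-/- cells, where 0.00624% of genes were called higher and 0% lower. Its difference was 1.90, with a 95% interval of -1.05 to 4.84. The values were 0.16 for Hbegf, -0.14 for Plau and 0.48 for Plaur. In WT cells Hbegf had a value of 1.85, Plau 1.52, Plaur 1.01 and Serpinb2 1.37, each higher in both replicates.

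Nec-1 on top of LPS+zVAD lowered all 4 members tested in Ifnar1-/- cells, where 7.58% of genes were called lower and 11.9% higher. For Hbegf, Plau and Plaur, the p-values here are tests only if the choice rested on WT arrays. This comparison shares the Ifnar1-/- LPS+zVAD arrays with their change upon zVAD. Hbegf fell by 5.32 (SE 0.54, adjusted p = 7.85e-06) and Plau fell by 3.83 (SE 0.59, adjusted p = 3.37e-04). Plaur fell by 2.11 (SE 0.28, adjusted p = 8.73e-05) and Serpinb2 fell by 7.02 (SE 1.41, adjusted p = 0.00226), the latter with 1 of 2 arrays above background. One of the arrays behind these values is the one that lacks most of the LPS response. Against replicate 1 alone, which keeps it, the differences were -5.59 for Hbegf, -4.96 for Plau, -1.69 for Plaur and -5.69 for Serpinb2, and all 4 calls stood when either array of the pair was left out, in a fit that assumes the lone array to vary like the other groups. Without replicate 2 the fitted differences were -5.48, -4.94, -1.74 and -5.82, the last with an adjusted p of 0.0399. In a fit of only the 2 groups compared no gene was called, and the adjusted p-values of the 4 members were 0.0983 to 0.228. With no filter Ereg and Plat were also called lower there, where 4.79% of genes were, and they fell at least 3.99-fold (adjusted p = 6.62e-04) and at least 8.68-fold (adjusted p = 0.0320). Without replicate 1 and without replicate 2 the adjusted p was 0.00177 and 0.00493 for Ereg, and 0.0585 and 0.146 for Plat, whose call was lost.

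In WT cells the same addition left Serpinb2 at 0.09, with a 95% interval of -2.86 to 3.04, where 18.5% of genes were called higher and 9.85% lower. The WT values were -3.30 for Hbegf, -3.90 for Plau and -1.29 for Plaur, lower in both replicates of each, and they share the WT LPS+zVAD arrays with the choice of members. With no filter Areg was called lower, where 6.03% of genes were, by at least 2.62-fold (adjusted p = 0.0116).

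Nec-1 on top of IFNβ+zVAD lowered Plau in Ifnar1-/- cells by 2.42 (SE 0.59, adjusted p = 0.0446), where 0.543% of genes were called lower and 1.07% higher. That call was lost in 9 of 13 other settings, each left-out array among them, with adjusted p-values from 0.00677 to 0.262. Plaur differed by -1.08 (SE 0.28, adjusted p = 0.0613) and was called with the slide as a replicate block and without the Ifnar1-/- LPS+zVAD+Nec-1 pair, the lowest adjusted p being 0.0244. Hbegf differed by -1.15 (adjusted p = 0.481). Here too the p-values of the picked genes are tests only if the choice rested on WT arrays, since the Ifnar1-/- IFNβ+zVAD arrays are shared. Serpinb2, not above background with Nec-1, differed by -2.55, with an interval of -5.5 to 0.40 that includes no change (adjusted p = 0.622). The bound for dim probes put its group means at least 4.47-fold apart, but that bound leaves out the spread between replicates. A fall of Serpinb2 was therefore not shown. In WT cells Serpinb2 differed by -1.77, with an interval of -4.71 to 1.18, and 0% of genes were called either way (621 at an unadjusted p under 0.05).

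**Figure D4:**
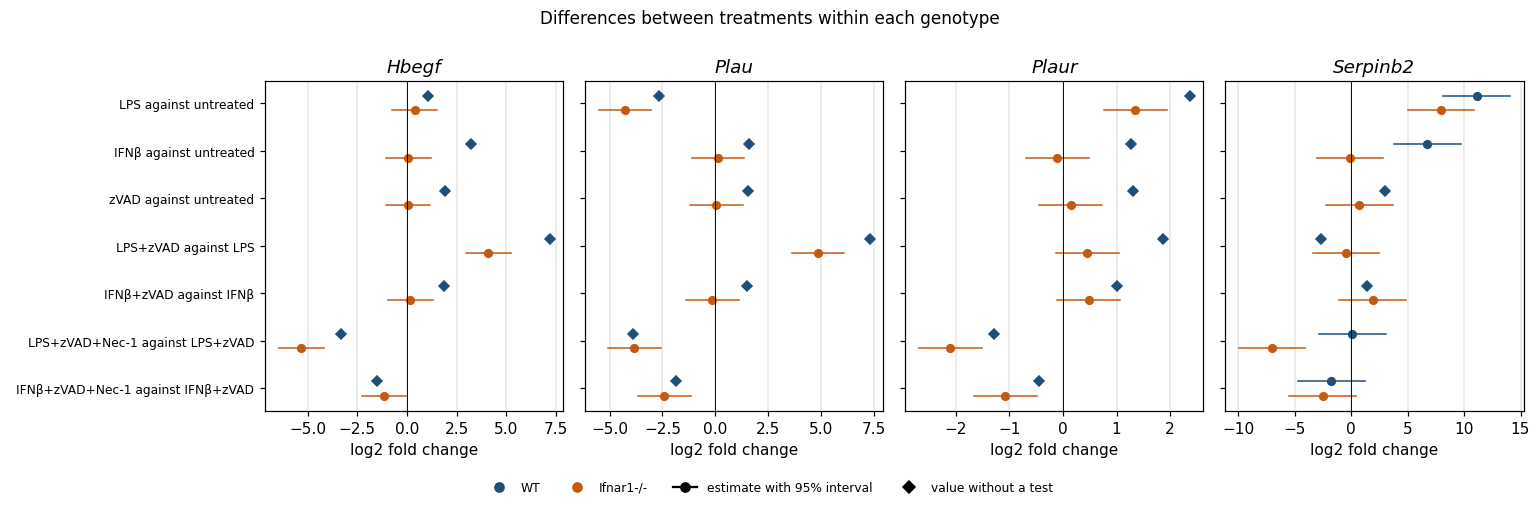
Log2 fold change (x axis, separate scale per gene) of Hbegf, Plau, Plaur and Serpinb2 for 7 comparisons (y axis) in WT and Ifnar1-/- BMDMs, n = 2 arrays per group. Circles carry 95% intervals from limma and diamonds are WT values with no interval. The Ifnar1-/- values of Hbegf and Plau for LPS+zVAD against LPS are 4.10 and 4.86. For Hbegf, Plau and Plaur, picked on their rise upon zVAD, the intervals of the Ifnar1-/- changes upon zVAD are a description and no test.

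Other genes of the EGF receptor system were read from a list of 24, all on the array, of which 15 were in the fit. Egfr and Erbb2 were among the 15, and the ligands Egf, Tgfa and Btc were not. LPS raised 4 and lowered 3 of the 15 in WT cells and raised 5 and lowered 3 in Ifnar1-/- cells, with list medians of 0.30 and 0.09 against -0.09 and -0.07 over all genes. Over all genes 16.1% were higher and 25.6% lower in WT and 10.6% and 14.6% in Ifnar1-/- cells. Nrg1, a ligand of ERBB3 and ERBB4, rose by 3.80 (adjusted p = 2.93e-05) in WT and 3.61 (adjusted p = 1.82e-04) in Ifnar1-/- cells. Rhbdf2, the iRhom that escorts ADAM17 in immune cells, rose by 2.60 (adjusted p = 8.00e-06) and 2.02 (adjusted p = 3.13e-04). Adam17 itself rose by 1.44 (adjusted p = 0.0120) in Ifnar1-/- cells. Among the genes that LPS lowered in WT cells, Lrig3 stood at -2.545 (adjusted p = 8.14e-05) and Adam10 at -1.475 (adjusted p = 7e-06).

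Adding zVAD to LPS raised 5 and lowered 1 (2 with the slide as a replicate block) of the 15 in WT cells, where 12.9% of genes were called higher and 21.7% lower, with a list median of 0.25 against -0.04 over all genes. The feedback inhibitors of receptor signaling Lrig1, Spry2 and Errfi1 rose by 2.71 (adjusted p = 0.00871), 2.10 (adjusted p = 1.59e-05) and 1.65 (adjusted p = 0.0112), and Nrg1 fell by 1.64 (adjusted p = 0.0284). In Ifnar1-/- cells Cd9, a tetraspanin that associates with the Hbegf precursor, was the 1 gene called, at 0.78 (adjusted p = 0.0124), with replicate values of 1.08 and 0.48. The count in Ifnar1-/- cells was 3 with the block. It was 0 with arrays shifted to a common 75th percentile and with the authors' table, so the Cd9 call was lost in these. The list median was 0.51 there, against -0.06 over all genes, of which 4.75% were higher. Nec-1 on top of LPS+zVAD lowered 3 and raised 1 of the 15 in WT cells, with Spry2 at -1.71 (adjusted p = 1.74e-04) and Errfi1 at -1.68 (adjusted p = 0.0125), and the block made that 5 lower. The share over all genes was 9.85% lower and 18.5% higher in WT and 7.58% and 11.9% in Ifnar1-/- cells. In Ifnar1-/- cells it lowered 3 (5 with the block) and raised 2, and Nrg1 fell by 4.88 (adjusted p = 2.17e-05), with replicate values of -4.51 and -5.24. The list medians were -0.54 in WT and -0.65 in Ifnar1-/- cells, against 0.02 and 0.09 over all genes. Without the Ifnar1-/- replicate 2 the list had 2 lower, 0 higher and a median of -0.47, and without replicate 1 it had 5 lower, 2 higher and a median of -0.83.

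IFNβ raised 3 and lowered 4 of the 15 in WT cells, with a list median of 0.30 against -0.18 over all genes, and changed 0 in Ifnar1-/- cells. Over all genes 13.5% were higher and 22.6% lower in WT cells. Among the list genes that IFNβ lowered there, Rhbdf1 stood at -2.305 (adjusted p = 1.78e-05) and Lrig3 at -1.909 (adjusted p = 0.00137). Their responses in Ifnar1-/- cells differed from those in WT cells by 1.968 (adjusted p = 0.0047) and 1.886 (adjusted p = 0.0297). Spry2 rose by 2.34 (adjusted p = 3.72e-06) and Nrg1 by 3.90 (adjusted p = 2.65e-05) in WT cells, and the responses in Ifnar1-/- cells differed by -2.24 (adjusted p = 6.21e-04) and -3.91 (adjusted p = 0.00180). Over that difference of responses the list had 4 genes higher and 3 lower, where 10.8% and 8.47% of all genes were, and over the corresponding difference for LPS 1 higher, Rhbdf1 at 1.58 (adjusted p = 0.0401), and 0 lower (2 higher with the block), where 3.01% and 3.62% were.

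For the plasminogen system, 22 of a list of 28 genes were in the fit. LPS raised 8 and lowered 4 in WT cells (7 lower with the replicate block) and raised 6 and lowered 6 in Ifnar1-/- cells, with list medians of 0.01 and -0.13 against -0.09 and -0.07 over all genes. The shares over all genes were 16.1% higher and 25.6% lower in WT and 10.6% and 14.6% in Ifnar1-/- cells. Mmp13, a collagenase, rose by 7.07 (adjusted p = 9.61e-08) in WT and 4.65 (adjusted p = 4.97e-05) in Ifnar1-/- cells. Mmp9, a gelatinase, rose by 3.79 (adjusted p = 0.00672) and 5.67 (adjusted p = 6.99e-04), and Mmp14, a membrane-bound metalloproteinase, by 4.57 (adjusted p = 7.91e-04) and 5.38 (adjusted p = 5.14e-04). Thbd, the thrombin receptor thrombomodulin, fell by 3.04 (adjusted p = 0.0171) in Ifnar1-/- cells.

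Adding zVAD to LPS raised 4 of the 22 (7 with the block) and lowered 7 in WT cells, and raised 1 (2 with the block) and lowered 0 (1 with the block) in Ifnar1-/- cells. The list medians were 0.03 and 0.04, against -0.04 and -0.06 over all genes, of which 12.9% were higher and 21.7% lower in WT and 4.75% and 3.77% in Ifnar1-/- cells. The count of 0 lower was 5 in the fit of only the groups compared and 2 without the Ifnar1-/- LPS+zVAD+Nec-1 pair. Itgb3, the integrin subunit of the vitronectin receptor, was the 1 gene called in Ifnar1-/- cells and rose by 2.24 (adjusted p = 0.00410) in WT and 2.54 (adjusted p = 0.00755) in Ifnar1-/- cells. Mmp9 fell by 3.32 (adjusted p = 0.0186), Thbd by 2.72 (adjusted p = 0.0238) and Mmp2 by 2.03 (adjusted p = 0.0337) in WT cells. Nec-1 on top of LPS+zVAD raised 4 and lowered 5 in WT cells, where 18.5% and 9.85% of all genes were called, with Itgb3 at -2.23 (adjusted p = 0.00540) and its partner subunit Itgav at -1.99 (adjusted p = 4.27e-04). In Ifnar1-/- cells it raised 1 (2 with the block) and lowered 3, against 11.9% and 7.58% of all genes, where Itgav stood at -1.62 (adjusted p = 0.00490, replicate values -1.31 and -1.92) and Mmp13 at -3.85 (adjusted p = 3.18e-04), with replicate values of -2.59 and -5.11. Thbd rose by 2.30 and 5.69 in the replicates there (adjusted p = 0.00473). The list medians were -0.16 in WT and -0.27 in Ifnar1-/- cells. Without the Ifnar1-/- replicate 2 the list had 3 lower, 0 higher, so that Thbd was not called, and a median of -0.28, and without replicate 1 it had 5 lower, 6 higher and a median of -0.20.

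IFNβ raised 3 and lowered 5 of the 22 in WT cells, with a list median of -0.08, and changed 0 in Ifnar1-/- cells. These counts are close to the shares over all genes, 13.5% higher and 22.6% lower, and the lower count was 2 with the authors' table and in the fit of only the groups compared. Mmp13 rose by 6.83 in WT cells (adjusted p = 7.13e-08), and the response in Ifnar1-/- cells differed by -6.82 (adjusted p = 1.55e-05). That difference had 1 gene higher (3 with the block) and 1 lower, and the difference for LPS had 0 higher and 1 lower (2 with the block), S100a10, which presents plasminogen at the cell surface, at -1.11 (adjusted p = 0.00321). Shifting arrays to a common 75th percentile moved the share of all calls that were higher from 38.6% to 51.2% for LPS and from 37.5% to 49.4% for IFNβ in WT cells. The share moved from 61.0% to 48.8% for Nec-1 on top of LPS+zVAD in Ifnar1-/- cells and from 56.1% to 42.8% for the difference in IFNβ response. The shift moved the median of all genes by over 0.1 in WT cells for LPS (-0.09 to 0.10), IFNβ (-0.18 to -0.02), LPS+zVAD against LPS (-0.04 to 0.09) and Nec-1 on top of it (0.02 to -0.12), and for the differences in LPS response (0.06 to -0.05) and IFNβ response (0.18 to 0.01), and reversed no member's called direction.

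**Figure D5:**
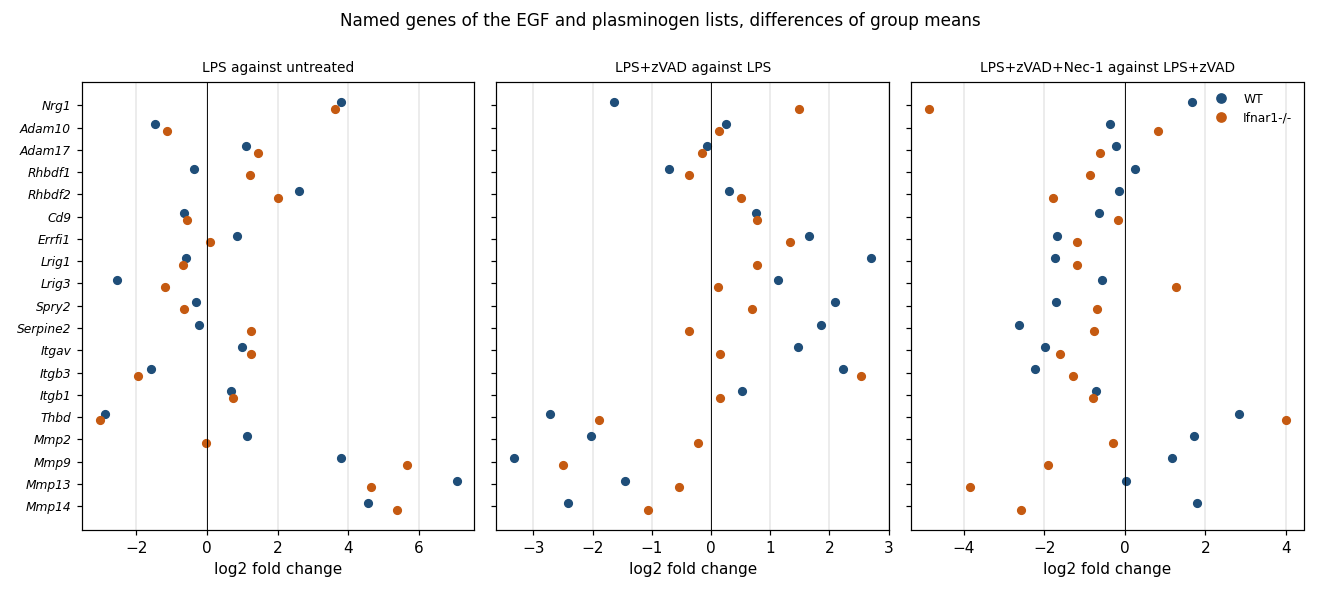
Log2 fold change of group means (x axis, separate scale per comparison) for genes of the EGF and plasminogen lists with the largest called changes in any of these 3 comparisons (y axis), in WT and Ifnar1-/- BMDMs, n = 2 arrays per group and no error shown. Itgb3 lies at 2.24 and 2.54 for LPS+zVAD against LPS, and Mmp13 at 7.07 and 4.65 for LPS against untreated.

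The members did not follow 1 pattern. After the mean of each genotype was subtracted, Pearson's r over the 32 arrays was 0.84 between Hbegf and Plaur, 0.67 between Hbegf and Plau, and 0.29 between Plau and Plaur. Serpinb2 went with Plat (0.81) and Plaur (0.80) and had an r of -0.10 with Plau. These values are descriptions, since arrays of a group share a treatment and arrays of a slide share a hybridization. The genes most like Hbegf were Zfp382 (0.96), Plk2 (0.94), Gpatch3 (0.94), Cacul1 (0.93) and Nmt2 (0.93). Those most like Plau were Bcar3 (0.94), Dio2 (0.90), Rhov (0.89), Pdlim5 (0.89) and Pcyt1a (0.89), and those most like Plaur were Mapk6 (0.94), Ppap2b (0.94), Pkp4 (0.94), Wsb1 (0.94) and Akap2 (0.94).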

How the data were processed

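Agilent 8x60K mouse arrays (1 colour, Cy3) were scanned and quantified by the authors with Feature Extraction 11.5.1.1. The deposited scanner intensity values are background-subtracted and detrended within the array, per the file headers, and are not normalized between arrays. The authors also deposited 1 table of normalized log2 values, used here as an alternative (array medians 7.61 to 7.80, median r = 0.993 with the scanner values across probes); the sources give its tool as limma, with no version. Probe positions are mm9, per the file headers.

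From the scanner files, outlier spots (130 to 499 per array) were left out, log2 intensities were quantile-normalized, spots of a probe were averaged, probes well above background on at least 50% of arrays were kept, and the brightest probe stood for a gene. limma 3.58.1 in R 4.3.3 was fitted to 16 group means with 16 residual degrees of freedom. Genes were called at an adjusted p under 0.05. The fit was tested on simulated data. The number of arrays limits the precision.

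Arrays with 1 replicate number and genotype shared a slide, per the file headers, so the numbers pair the samples. Deviations from group means of arrays on 1 slide correlated at r = 0.318 to 0.670 in WT and 0.168 to 0.578 in Ifnar1-/- cells over the 28 pairs of groups in each. The slide is the replicate block of the alternatives.

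Members and gene lists were chosen with earlier results of these data known. Named were the 7 members, up to 4 list genes with the largest change among those called in a comparison, and the 5 genes most correlated with each picked member. Alternatives were another scaling, background correction, filter, probe summary, array set and the block, and leaving out each array. The counts of list genes under these settings, and the list and dim-gene values without either array of the pair that differs, were added after seeing the data. All deposited columns were mapped to a sample. One gene of the lists stands in the counts and is not reported here by name.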

Additional observations from a re-analysis of the deposited data

Results flagged for a closer look

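The response of Serpinb2 to IFNβ differed between genotypes, by -6.86 on the log2 scale in Ifnar1-/- minus WT cells, by a test of the difference itself (limma, adjusted p = 0.0207). The call was lost with normexp background correction, with the authors' table and with 4 of the 8 single arrays left out (adjusted p up to 0.106), the value ran from -8.54 to -4.25, and the WT untreated level was above background on 1 of 2 arrays. WT replicates rose by 5.57 and 7.94, and the Ifnar1-/- replicates differed by 0.02 and -0.23 from untreated. Plau upon addition of zVAD to IFNβ went up in both WT replicates, 0.96 and 2.09 with a mean of 1.52, and down in both Ifnar1-/- replicates, -0.21 and -0.07, and this difference between genotypes was not tested. Plau was picked for its rise upon zVAD, so its WT direction is a property of the choice and no support for a difference.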

How the results depend on the processing

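Of 34 pairs of a member and a comparison in the main fit, 13 were called, and 7 of these stayed called in every setting tried. Among the 7 were Serpinb2 upon LPS in both genotypes and upon IFNβ in WT cells, and Plau and Plaur upon LPS in Ifnar1-/- cells. The rest were Hbegf and Plau upon LPS+zVAD against LPS in Ifnar1-/- cells, the response they were picked on. All these counts include the Ifnar1-/- changes of the picked genes upon zVAD, which are given above with no test. Their staying called is therefore no support. Over 446 alternative values 19 lost a call, 3 gained one and 0 reversed a called direction.

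The number of members called changed as follows. With no filter, and with a filter of at least 2 arrays, it was 3 in place of 1 for LPS in WT, 5 in place of 3 for LPS in Ifnar1-/- cells, and 1 in place of 0 for LPS+zVAD+Nec-1 against LPS+zVAD in WT cells, because Areg, Ereg and Plat enter the fit. The filter of 2 arrays admits Ereg, and Plat on nearly all its arrays, through LPS-containing groups, so those counts support nothing. The same 2 settings gave 6 in place of 4 for LPS+zVAD+Nec-1 against LPS+zVAD in Ifnar1-/- cells. The authors' table gave 2 for LPS in WT cells, 4 for LPS in Ifnar1-/- cells and 5 for that addition of Nec-1. For LPS+zVAD+Nec-1 against LPS+zVAD in Ifnar1-/- cells, the fit of only the groups compared gave 0 in place of 4; it has 2 residual degrees of freedom. For IFNβ+zVAD+Nec-1 against IFNβ+zVAD in Ifnar1-/- cells, the count of 1 became 0 with the 75th percentile shift, no filter, the filter of 2 arrays, only the groups compared and the mean of all probes. It became 2 with the replicate block and without both Ifnar1-/- LPS+zVAD+Nec-1 arrays, and leaving out single arrays gave 0 to 0. The difference in LPS response between genotypes had 1 call in place of 0 with only the groups compared. The difference in IFNβ response had 0 in place of 1 with normexp background correction and with the authors' table, and 0 to 1 when single arrays were left out: WT untreated replicate 1, Ifnar1-/- untreated replicate 1, WT IFNβ replicate 2 or Ifnar1-/- IFNβ replicate 2. Beyond what the filters and the group-only fit do by construction, the cause was not tested.

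The replicate block changed no other member's call. With it the genes called in Ifnar1-/- cells went from 4035 to 6222 for LPS, 1367 to 3120 for LPS+zVAD against LPS, 3117 to 5673 and 258 to 669 for Nec-1 on top of LPS+zVAD and IFNβ+zVAD, and 1 to 3 for IFNβ+zVAD against IFNβ (12 with no filter, 9 with the filter of 2 arrays), and from 1063 to 2642 and 3095 to 5490 for the differences in LPS and IFNβ response. With only the groups compared they went from 1367 to 2110, 3117 to 0 and 258 to 5 in the same Ifnar1-/- comparisons, and from 4549 to 0 for LPS+zVAD+Nec-1 against LPS+zVAD in WT cells. Without both Ifnar1-/- LPS+zVAD+Nec-1 arrays 258 became 512. List counts over these settings, given as lowest to highest for higher and then lower: for LPS, the EGF list had 2 to 5 and 2 to 3 in WT and 4 to 6 and 1 to 3 in Ifnar1-/- cells, and the plasminogen list 5 to 11 and 2 to 7, and 6 to 8 and 5 to 9. For LPS+zVAD against LPS they were 2 to 5 and 0 to 2, and 0 to 3 and 0 to 0, for the EGF list, and 1 to 7 and 2 to 9, and 1 to 2 and 0 to 5, for the plasminogen list. For Nec-1 on top of LPS+zVAD the lowest was 0 for both lists, genotypes and directions. For IFNβ in WT cells they were 3 to 3 and 2 to 4, and 1 to 3 and 2 to 6. For the difference in IFNβ response they were 2 to 4 and 3 to 3, and 0 to 3 and 1 to 2. Areg, Ereg and Plat are limited by signal over background on most arrays.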
